A study of Mus musculus with 15 samples.

Results

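The genes described here encode the machinery that brings proteins into mitochondria and the factors that put the respiratory chain together. They were taken by name: a probe set of the array entered if its only platform gene symbol began with Timm, Tomm, Chchd, Coa or Ndufaf followed by a digit, or with Cox1 followed by a digit. This gave 75 of the 22690 probe sets in the table, for 42 of 12393 genes. A further 7 probe sets that list such a name among several genes (those of Tomm5, Tomm6, Chchd2, Cox14 and 1 of Coa6) were not members. Of the members, 21 genes had several probe sets, and the brightest over all arrays stands for the gene unless another is named.

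Neural stem cells were isolated from female mice of 6 weeks, strain given as C57/B16, and grown as primary neurospheres, which are floating clusters of stem and progenitor cells. Cultures were left as controls or exposed for 48 h to CD95L-T4, a trimerized ligand for CD95 (Fas), a receptor best known for triggering cell death. Either all RNA of the cells (total RNA) or the RNA of polysomes, mRNAs that carry several ribosomes (polysomal RNA), was hybridised to Affymetrix mouse arrays. The design asks which mRNAs differ between the fractions and which differ with the ligand in each fraction. The 15 arrays form 4 groups, with 4 arrays each for total RNA of controls, total RNA of CD95L-T4 cultures and polysomal RNA of controls, and 3 for polysomal RNA of CD95L-T4 cultures. The 4 groups share strain, sex, age and culture, and no group carries a genetic change. Total RNA was purified with a column kit and labelled as total RNA in the record, whereas polysomal RNA was extracted with phenol and chloroform and labelled as polyA RNA, so fraction, extraction and RNA class cannot be told apart. The titles call the replicates biological, but whether each came from its own animals is not said, so p-values measure the spread between these cultures only.

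Nearly all mitochondrial proteins are made on ribosomes in the cytosol and carried in. Precursors cross the outer membrane through the TOM complex. From there, those with a presequence go through the TIM23 complex to the matrix, carrier proteins are escorted by small TIM chaperones to the TIM22 complex of the inner membrane, and small cysteine-rich proteins are folded and trapped between the membranes by the oxidoreductase Chchd4 (the Mia40 of yeast). Many proteins trapped in this way, with a paired-cysteine fold called CHCH, are themselves factors for cytochrome c oxidase assembly or parts of the cristae-organising MICOS complex.

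Transcription of genes for mitochondrial proteins is classically linked to the factors NRF1 and GABP, the latter of the ETS family. Short stretches around the transcription starts of some members are shown, with matches to motifs of these factors or to a string that holds an ATG marked. RefSeq windows (build GRCm38.p6) from 250 bases before to 50 after the start were on hand for 36 of the 42 genes. The ETS core CCGGAAG, searched on both strands, was in a window of 14 of the 36 genes (38.9%), against 8.86% of all 32851 windows and 14% of 12559 windows of genes on the array. In these 7 examples the capitals mark that core or its reverse complement.
Chchd5: ccgaagtcctgCTTCCGGtgatcactaaac
Timm8b: tgaagcgtgaaCCGGAAGgcaggagacggt
Cox16: gggctgcgagtCCGGAAGgggcgggccctc
Timm10: gtcggcgttttCTTCCGGatcaaagaagag
Tomm22: agcccggctcgCTTCCGGaagacgctctgt
Tomm70a: gccttctgaccCCGGAAGtggttctcccct
Cox15: cgacgcctgacCCGGAAGtgcttgttcttt
They lie at chr2:129129558-129129587 (Chchd5, plus strand), chr9:50603878-50603907 (Timm8b, plus), chr12:81484844-81484873 (Cox16, minus), chr2:84826994-84827023 (Timm10, plus), chr15:79670810-79670839 (Tomm22, plus), chr16:57121623-57121652 (Tomm70a, plus) and chr19:43752975-43753004 (Cox15, minus). Each is read along the gene's strand, and the match begins 12 bases before the start in Timm8b and at the 8th transcribed base in Cox15.

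The NRF1 motif, GCGC followed by any base and TGCGC on either strand, was in windows of 5 of 36 genes (13.9%: Chchd4, Ndufaf4, Ndufaf5, Timm8b and Tomm20), against 4.6% of all windows and 7.96% of those of array genes. An ATG string, AA followed by any base and ATGGCGG on the sense strand, was in 3 of 36 (8.33%: Coa3, Timm44 and Timm50), against 0.886% and 1.63%. It was searched over the whole window, and whether its ATG is a start codon was not checked. Capitals mark the NRF1 motif in the first 3 lines and the ATG string in the last 3.
Ndufaf4: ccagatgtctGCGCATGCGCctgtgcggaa
Ndufaf5: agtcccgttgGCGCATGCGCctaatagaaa
Tomm20: gggtccatctGCGCGTGCGCaccaggcgtt
Timm50: gcgtcagcgcAAGATGGCGGcctcggcggc
Timm44: gggctcttccAACATGGCGGcggcagctct
Coa3: gcggagcagcAACATGGCGGcccctggagc
These lie at chr4:24897960-24897989 (plus), chr2:140170652-140170681 (plus), chr8:126945922-126945951 (minus), chr7:28312016-28312045 (minus), chr8:4275871-4275900 (minus) and chr11:101278911-101278940 (minus), in the same order. No match of one motif overlapped a match of another in the windows of the members. A start with a C followed by 4 pyrimidines, as in mRNAs of ribosomal proteins, was found in 0 of 36 genes, against 2.51% of all windows. A match is a string of letters in a window, not a shown binding site.

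Array medians lay between 6.83 and 6.98 in log2, and arrays of 1 group correlated at 0.994 to 0.998 over all probe sets. Markers of neural stem cells averaged 9.35 to 9.50 in every array over 8 of 8 genes, although Prom1 averaged 3.77. Markers of microglia (6 of 6 genes) averaged 4.06 to 4.42, of endothelium (5 of 5) 4.34 to 4.92 and of fibroblasts (4 of 4) 4.25 to 4.52. Neuronal markers (5 of 5) averaged 5.17 to 5.48 in total and 5.54 to 5.80 in polysomal RNA, and astrocyte markers (4 of 4) 6.72 to 6.80 and 7.0 to 7.24. Oligodendrocyte markers (4 of 5 measured) averaged 6.65 to 6.99 and ependymal markers (2 of 3) 5.09 to 5.62. Genes within a list differed: Aldoc averaged 11.10, S100b 8.18, Gfap 4.81 and Aqp4 3.72, and Olig2 11.68 but Mog 3.0. In controls, polysomal minus total RNA was 1.73 for S100b, 0.42 for Gfap, 0.18 for Aqp4 and -0.64 for Aldoc. It was 0.61 for Gad1 and 0.06 to 0.20 for the other neuronal markers. The gap between the 3′ and 5′ probe sets of actin, a sign of RNA length, was 0.28 to 0.57 in total RNA and 0.59 to 1.03 in polysomal RNA. Added poly-A control RNAs averaged 9.86 in CD95L-T4 polysomal replicate 2, against 8.18 and 8.32 in the other arrays of its group and 8.45 to 9.03 in control polysomal RNA. The part of these differences in the results below was not tested.

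Most of the import and assembly mRNAs of control cultures were more abundant in the polysomal fraction than in total RNA, relative to the other mRNAs on the array. Of the 42 genes, 33 were higher, 3 were lower and 6 were not called (limma over all 22626 probe sets tested, Benjamini-Hochberg adjusted p under 0.05). Over all 12393 genes, 33.5% were higher and 23.2% lower. The members were brighter than most probe sets, with a median of 9.455 to 10.32 per array against 6.83 to 6.98. Shares of all genes, here and below, include dim genes and were not matched for level. The median difference of the members was 0.90 in log2, with the middle 50% of genes between 0.20 and 1.22 and the extremes at -0.51 and 1.73, and the median over all genes was 0.10. Total and polysomal arrays did not overlap for 36 of the 42, against 55.5% of all genes. The largest rises were those of Coa6, Chchd5, Timm8b, Cox19, Chchd7 and Coa3, all small proteins of the intermembrane space or inner membrane, and the 3 falls were those of Cox15, Tomm70a and Tomm20. In bulk cultures fewer cells with an mRNA and less mRNA per cell cannot be told apart, and a higher share in polysomal RNA is not a rate of translation.

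**Figure D1:**
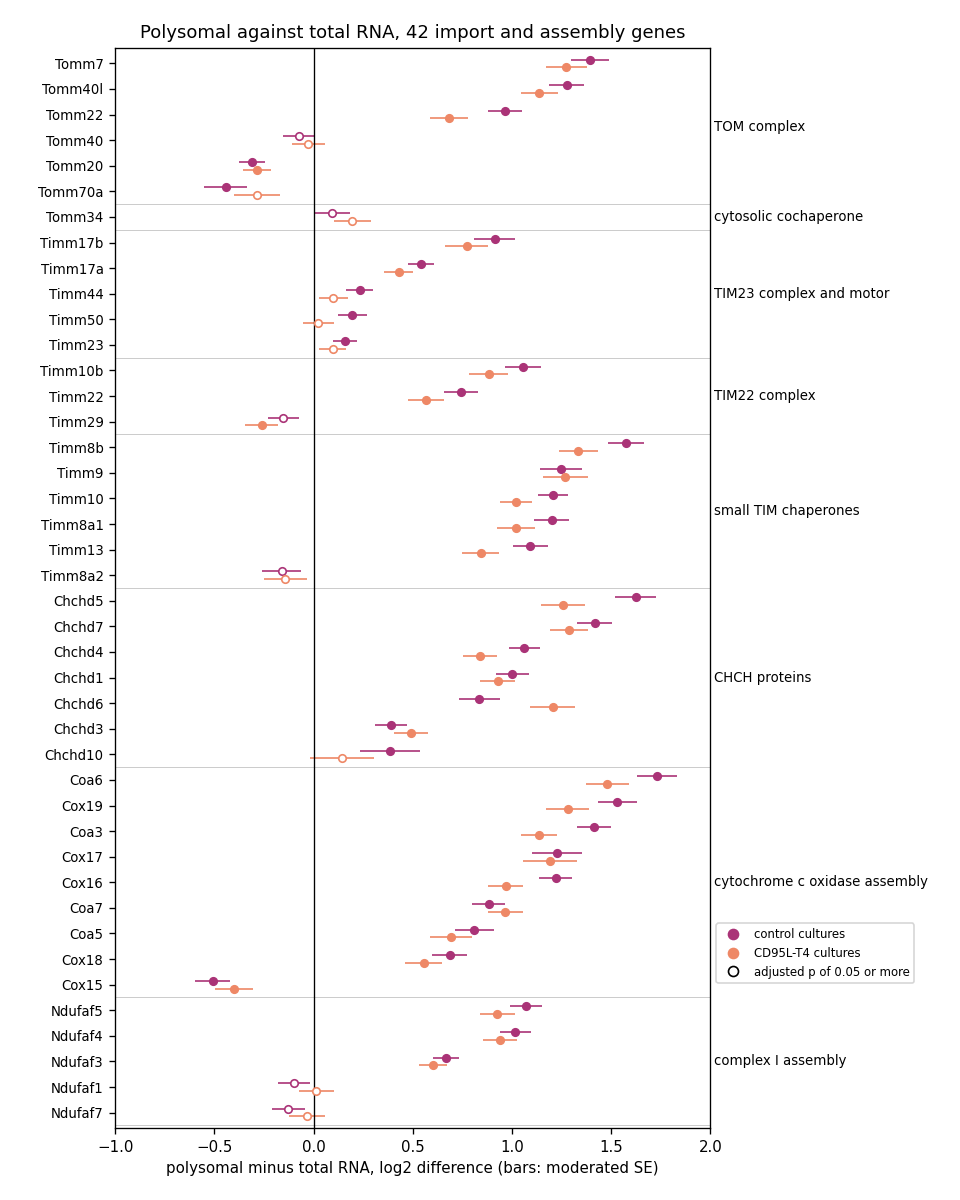
Difference between polysomal and total RNA (log2, horizontal axis) for the 42 genes, grouped by role, in control cultures (4 against 4 arrays) and CD95L-T4 cultures (3 against 4 arrays); bars are limma's moderated standard errors and open symbols have an adjusted p of 0.05 or more. Small TIM, CHCH and cytochrome c oxidase assembly genes lie mostly near or above 1, the TIM23 genes Timm23, Timm50 and Timm44 lie below 0.3, and Cox15, Tomm70a and Tomm20 lie below 0.

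The TOM complex was split. Of its 6 genes 3 rose, 2 fell and 1 was not called, with a median difference of 0.45. Tomm7, a small subunit that tunes the stability of the channel complex, read 10.56, 10.45, 10.41 and 10.40 in control total RNA and 11.99, 11.87, 11.77 and 11.76 in control polysomal RNA. The CD95L-T4 arrays read 10.41, 10.40, 10.29 and 10.11 for Tomm7 in total RNA and 11.47, 11.83 and 11.43 in polysomal RNA. Every polysomal array was above every total array, by 1.39 ± 0.10 (SE) in controls (2.63-fold, adjusted p 1.61e-09) and 1.27 ± 0.10 with CD95L-T4. Tomm22, the central receptor that links the channels, read 10.88, 10.85, 10.84 and 10.79 in control total and 11.91, 11.78, 11.80 and 11.73 in control polysomal RNA. Under the ligand it read 10.83, 10.89, 10.90 and 10.85 in total and 11.35, 11.84 and 11.46 in polysomal RNA. The fractions did not overlap for Tomm22 under either condition, and its rise was 0.97 ± 0.09 in controls and 0.68 ± 0.09 with the ligand. Tomm40l, a close relative of the channel protein, rose by 1.28 ± 0.09 in controls.

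Tomm20, Tomm70a and Tomm40 of the TOM complex did not rise. Tomm20, the receptor for presequences, read 13.18, 13.10, 13.17 and 13.18 in control total and 12.86, 12.85, 12.86 and 12.82 in control polysomal RNA. Its CD95L-T4 arrays were at 13.14, 13.01, 13.24 and 13.06 in total and 12.76, 12.92 and 12.80 in polysomal RNA. All polysomal arrays were below all total arrays, and Tomm20 fell by 0.31 on the log2 scale in controls (SE 0.07, 1.24-fold, adjusted p 0.000673) and by 0.29 with CD95L-T4 (SE 0.07). Of its 5 probe sets 3 fell and 2 were not called, over a range of -0.31 to 0.03. Tomm70a, the receptor for carrier precursors held by cytosolic chaperones, read 10.23, 10.26, 10.24 and 10.25 in control total and 9.88, 9.78, 9.74 and 9.81 in control polysomal RNA. Its CD95L-T4 arrays read 10.42, 10.29, 9.88 and 10.05 in total and 10.13, 9.69 and 9.81 in polysomal RNA. These overlapped, while the control arrays did not. The difference in controls was -0.44 ± 0.11 (adjusted p 0.00192), and all 4 probe sets of Tomm70a fell there, with differences of -0.44 to -1.28. In CD95L-T4 cultures a dimmer probe set read 10.35, 10.21, 10.26 and 10.24 in total and 9.84, 9.52 and 9.60 in polysomal RNA. Another read 8.30, 8.45, 8.20 and 8.32 against 7.61, 6.79 and 7.52, and neither overlapped. A further dimmer one read 9.93, 9.71, 9.44 and 9.43 against 9.70, 9.20 and 9.34, which overlapped. The brightest probe set gave -0.28 ± 0.12 there (adjusted p 0.0510), which missed the threshold. That value of Tomm70a passed in 10 of 17 alternatives (adjusted p 0.000203 to 0.0436): both quantile normalizations, both filters on dim probe sets, a trended and robust variance, the replicate block, the average over probe sets, and without CD95L-T4 total replicate 3 or 4 or CD95L-T4 polysomal replicate 1.

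Tomm40, the channel itself, read 9.73, 9.62, 9.73 and 9.68 in control total and 9.65, 9.55, 9.67 and 9.59 in control polysomal RNA. The CD95L-T4 values were 9.72, 9.54, 9.76 and 9.58 in total and 9.78, 9.63 and 9.46 in polysomal RNA. These groups overlapped throughout, with differences of -0.08 ± 0.08 and -0.03 ± 0.08 that did not pass the test. Tomm34 shares the family name but encodes a cytosolic cochaperone, and gave 0.10 ± 0.09 in controls, also not called.

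**Figure D2:**
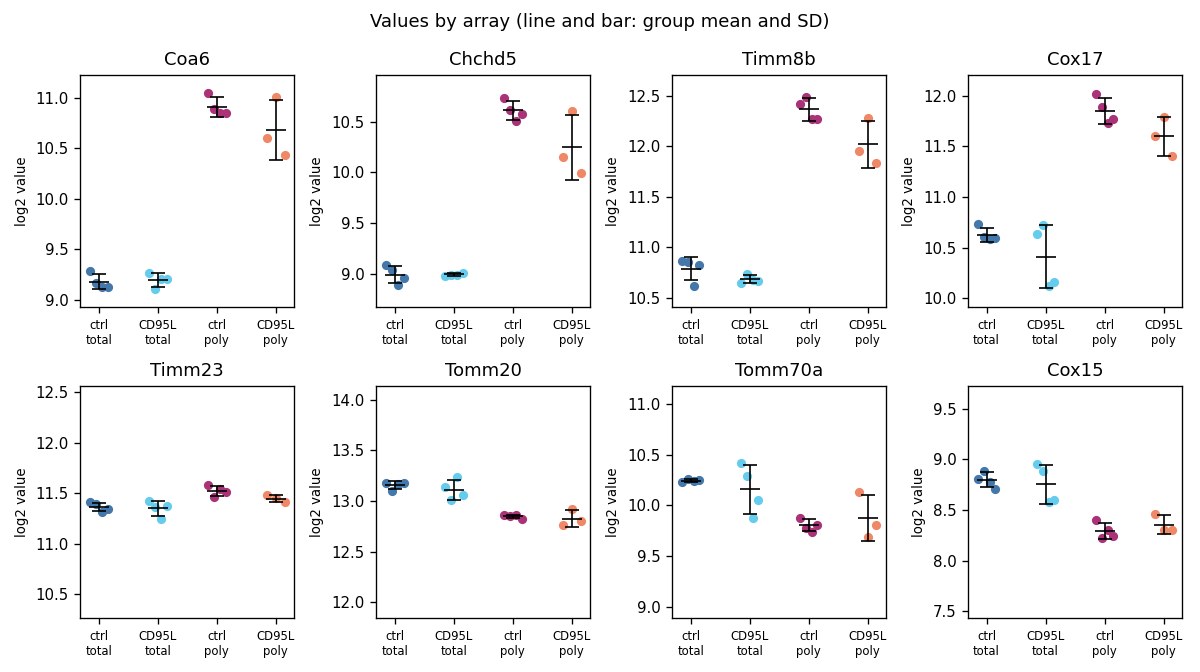
Log2 value of each array (points) for 8 genes in the 4 groups (ctrl, control; CD95L, CD95L-T4; poly, polysomal RNA), with group mean and SD; every panel spans the same range of log2 units. Polysomal arrays lie above total arrays in Coa6, Chchd5, Timm8b and Cox17 and below them in Tomm20 and Cox15, while Timm23 moves little and Tomm70a overlaps with CD95L-T4.

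All 5 genes of the TIM23 complex and its motor rose in controls, but mostly by little, with a median of 0.23. Timm23, the channel-forming core, read 11.41, 11.39, 11.32 and 11.34 in control total and 11.58, 11.46, 11.54 and 11.51 in control polysomal RNA. Its CD95L-T4 arrays read 11.42, 11.36, 11.25 and 11.37 in total and 11.48, 11.45 and 11.41 in polysomal RNA. The control fractions were just separate and the CD95L-T4 fractions overlapped. The control difference of 0.16 ± 0.06 (1.12-fold, adjusted p 0.0399) did not pass after quantile normalization over all arrays (adjusted p 0.191), nor without control total replicate 2, 3 or 4 or control polysomal replicate 1, 3 or 4 (adjusted p 0.0595 to 0.101). Timm50, the receptor that takes presequences from the TOM complex, read 9.25, 9.17, 9.09 and 9.0 in control total and 9.29, 9.28, 9.39 and 9.33 in control polysomal RNA. With CD95L-T4 it read 9.23, 9.31, 9.09 and 9.17 in total and 9.20, 9.30 and 9.17 in polysomal RNA, which overlapped. Its control rise of 0.20 ± 0.07 (adjusted p 0.0298) was lost without control total replicate 3 or 4 or control polysomal replicate 3 or 4 (adjusted p 0.0570 to 0.108).

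Timm44, which tethers the import motor to the channel, rose by 0.23 ± 0.07 in controls. The channel partners Timm17a and Timm17b rose by 0.54 ± 0.07 and 0.91 ± 0.10. In CD95L-T4 cultures the 2 Timm17 genes were the members of this complex that passed the test, at 0.43 ± 0.07 and 0.77 ± 0.11.

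In the TIM22 complex, which inserts carrier proteins into the inner membrane, 2 of 3 genes rose in controls. Timm22, its core, rose by 0.74 ± 0.08, and Timm10b, the small TIM protein that docks on it, by 1.06 ± 0.09, with its 4 probe sets between 0.60 and 1.38. Timm29, a further subunit, read 9.37, 9.33, 9.30 and 9.21 in control total and 9.23, 9.18, 9.11 and 9.08 in control polysomal RNA. With CD95L-T4 it read 9.37, 9.56, 9.29 and 9.21 in total and 9.12, 9.13 and 9.04 in polysomal RNA. For this brighter probe set the control groups overlapped (-0.15 ± 0.08, not called), and with CD95L-T4 the polysomal arrays all lay lower and Timm29 fell (-0.26 ± 0.08, adjusted p 0.0139). That call was lost with equal array medians (adjusted p 0.0806), in a fit of the compared groups alone (0.0649), and without CD95L-T4 total replicate 2 (0.0524) or CD95L-T4 polysomal replicate 3 (0.0523). The dimmer probe set of Timm29 fell in both conditions. It read 7.84, 7.80, 7.80 and 7.90 in control total against 7.20, 7.28, 7.27 and 7.13 in control polysomal RNA, and 7.85, 7.89, 8.01 and 7.81 against 7.28, 7.13 and 7.0 with CD95L-T4. None of these fractions overlapped, and the differences were -0.62 ± 0.07 in controls (adjusted p 1.26e-06) and -0.75 ± 0.08 with the ligand (adjusted p 3.70e-07). The mean of both probe sets was called in controls as well (-0.38, adjusted p 4.64e-05).

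Small TIM chaperones, which shield carrier precursors between the membranes, were high as a group: 5 of 6 rose in controls, with a median of 1.20. Timm8b, a relative of the protein lost in a deafness-dystonia syndrome, read 10.86, 10.85, 10.62 and 10.82 in control total and 12.42, 12.49, 12.27 and 12.27 in control polysomal RNA. Its CD95L-T4 arrays read 10.65, 10.74, 10.68 and 10.67 in total and 11.95, 12.28 and 11.83 in polysomal RNA. The polysomal arrays lay more than 1 log2 unit above the total arrays in both conditions, a rise of 1.58 ± 0.09 in controls (2.98-fold, adjusted p 3.61e-10) and 1.34 ± 0.10 with CD95L-T4. Timm10 forms a ring-shaped chaperone with Timm9, and read 10.90, 10.84, 10.70 and 10.76 in control total and 12.05, 12, 12.04 and 11.94 in control polysomal RNA. Its CD95L-T4 arrays were at 10.80, 10.86, 10.87 and 10.90 in total and 11.78, 12.07 and 11.78 in polysomal RNA. With no overlap, Timm10 rose by 1.21 ± 0.08 in controls and 1.02 ± 0.08 with CD95L-T4.

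Timm9 was the member whose probe sets were called in opposite directions. The brighter one read 8.22, 8.15, 8.20 and 8.14 in control total and 9.58, 9.48, 9.36 and 9.28 in control polysomal RNA, and 8.24, 8.15, 7.72 and 7.84 against 9.17, 9.42 and 9.18 with CD95L-T4. The dimmer one read 6.31, 5.96, 6.09 and 5.93 in control total and 5.05, 5.41, 5.41 and 4.81 in control polysomal RNA. So the fractions were separate for both, in opposite order, with 1.25 ± 0.11 for the brighter and -0.90 ± 0.20 for the dimmer. The mean of both gave 0.17 (adjusted p 0.269), which was not called, and the direction for Timm9 therefore depends on the probe set. Timm8a1, the mouse gene of the deafness-dystonia protein, rose by 1.20 ± 0.09 and Timm13, its partner, by 1.09 ± 0.09. Timm8a2, a close copy of Timm8a1, read 2.51 to 3.15 over all arrays, far under the array medians, and was not called (-0.16 ± 0.10).

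All 7 genes of the CHCH family rose in controls, with a median of 1.0. Chchd5, a paired-cysteine protein of the intermembrane space, read 9.08, 9.03, 8.89 and 8.96 in control total and 10.74, 10.62, 10.51 and 10.58 in control polysomal RNA. With CD95L-T4 its arrays were at 8.98, 8.99, 8.99 and 9.01 in total and 10.15, 10.61 and 9.99 in polysomal RNA. The fractions were apart by 1.62 ± 0.10 in controls (3.08-fold, adjusted p 7.40e-10) and 1.26 ± 0.11 with CD95L-T4, and the second probe set gave 1.64 in controls. Chchd7, related to the yeast oxidase factor Cox23, read 7.15, 7.12, 7.07 and 7.19 in control total and 8.59, 8.52, 8.43 and 8.66 in control polysomal RNA. Its CD95L-T4 arrays read 7.02, 7.24, 6.89 and 7.01 in total and 8.27, 8.52 and 8.19 in polysomal RNA. That is a rise of 1.42 ± 0.09 in controls and 1.29 ± 0.10 with CD95L-T4, with no overlap.

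Chchd4, the oxidoreductase that folds the CHCH and small TIM proteins, read 10.08, 10.16, 10.06 and 9.95 in control total and 11.21, 11.14, 11.14 and 11.01 in control polysomal RNA. Its CD95L-T4 values were 10.15, 10.14, 10.18 and 10.22 in total and 10.98, 11.21 and 10.85 in polysomal RNA. Thus the mRNA of Chchd4 rose by 1.06 ± 0.08 and 0.84 ± 0.09, with the fractions separate in both conditions. Gfer, which reoxidises Chchd4 and is not a member, rose by 1.16 ± 0.08 in controls. Chchd3, a MICOS subunit, read 10.05, 10.23, 10.18 and 10.18 in control total and 10.43, 10.56, 10.60 and 10.61 in control polysomal RNA. In CD95L-T4 cultures Chchd3 read 10.11, 10.08, 9.99 and 9.92 in total and 10.62, 10.34 and 10.59 in polysomal RNA. It rose by less than most of its family, 0.39 ± 0.08 and 0.49 ± 0.09, although its dimmer probe set gave 1.02 in controls.

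Chchd6, another MICOS subunit, read 8.35, 8.34, 8.24 and 8.14 in control total and 9.04, 9.03, 9.16 and 9.18 in control polysomal RNA. With CD95L-T4 it read 8.44, 8.24, 7.94 and 8.04 in total and 9.59, 9.27 and 9.25 in polysomal RNA. Its rise was 0.84 ± 0.10 in controls and 1.21 ± 0.11 with CD95L-T4, and the difference between these is taken up with the ligand. Chchd1, a protein of the mitochondrial ribosome, rose by 1.0 ± 0.08. Chchd10, linked to motor neuron disease, rose by 0.39 ± 0.15 (adjusted p 0.0374) at values of 4.35 to 5.30, under the array medians. The call for Chchd10 was lost without control total replicate 1 or 3 or control polysomal replicate 3 or 4 (adjusted p 0.0739 to 0.108).

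For cytochrome c oxidase assembly, 8 of 9 genes rose and 1 fell in controls, and the median of 1.22 was the highest of the 7 role groups. Coa6, a factor for the copper site of the oxidase, read 9.29, 9.17, 9.13 and 9.13 in control total and 11.05, 10.89, 10.85 and 10.85 in control polysomal RNA. Its CD95L-T4 arrays were at 9.27, 9.11, 9.21 and 9.21 in total and 10.60, 11.01 and 10.43 in polysomal RNA. No other member rose as far: 1.73 ± 0.10 in controls (3.32-fold, adjusted p 2.95e-10) and 1.48 ± 0.11 with CD95L-T4. Cox19, also needed for copper delivery, read 9.14, 9.02, 8.96 and 8.95 in control total and 10.64, 10.51, 10.57 and 10.47 in control polysomal RNA. Under CD95L-T4 Cox19 read 9.03, 9.01, 9.03 and 9.09 in total and 10.22, 10.66 and 10.08 in polysomal RNA. The fractions lay apart by 1.53 ± 0.10 and 1.28 ± 0.11.

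Cox17, the copper chaperone at the head of this route, read 10.73, 10.60, 10.58 and 10.59 in control total and 12.02, 11.89, 11.73 and 11.77 in control polysomal RNA. Its CD95L-T4 arrays read 10.63, 10.72, 10.12 and 10.16 in total and 11.60, 11.79 and 11.41 in polysomal RNA. There was no overlap of fractions, and it rose by 1.23 ± 0.13 and 1.19 ± 0.14. The dimmer probe set of Cox17 gave 0.25 in controls and was not called, at 3.70 to 4.42 over all arrays, far under the array medians. Coa3, which holds the newly made first subunit of the oxidase, read 11.21, 11.23, 11.13 and 11.14 in control total and 12.73, 12.57, 12.55 and 12.51 in control polysomal RNA. With CD95L-T4, 11.16, 11.17, 11.11 and 11.13 were read for Coa3 in total and 12.23, 12.53 and 12.08 in polysomal RNA. Again the fractions were separate, by 1.41 ± 0.09 in controls (adjusted p 4.59e-10) and 1.14 ± 0.09 with CD95L-T4. Cox16, a factor for the second subunit, read 8.26, 8.18, 8.28 and 8.19 in control total and 9.52, 9.46, 9.44 and 9.37 in control polysomal RNA. Its CD95L-T4 values were 8.25, 8.20, 8.26 and 8.19 in total and 9.03, 9.46 and 9.09 in polysomal RNA. The rise was 1.22 ± 0.08 and 0.97 ± 0.09 with no overlap. The dimmer probe set of Cox16 gave 0.24 in controls and was not called, at 3.38 to 4.17 over all arrays, also far under the medians.

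Cox15, the enzyme that makes heme A for the oxidase, went the other way. It read 8.81, 8.89, 8.78 and 8.71 in control total and 8.40, 8.22, 8.30 and 8.24 in control polysomal RNA. With the ligand the arrays read 8.95, 8.89, 8.58 and 8.60 in total and 8.46, 8.30 and 8.30 in polysomal RNA. Each polysomal array was lower than each total array, and the difference for Cox15 was -0.51 ± 0.09 in controls (1.42-fold lower, adjusted p 9.04e-05) and -0.40 ± 0.10 with CD95L-T4. All 4 of its probe sets fell in controls, with differences of -0.45 to -0.88. The remaining 3 factors rose in controls: Coa7 by 0.88 ± 0.08, Coa5 by 0.81 ± 0.10 and Cox18, which inserts the second subunit, by 0.69 ± 0.09.

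Among factors for complex I, the NADH dehydrogenase of the chain, 3 of 5 rose in controls, with a median of 0.67. The early factors Ndufaf3 and Ndufaf4 rose by 0.67 ± 0.07 and 1.02 ± 0.08, and Ndufaf5, which modifies a subunit, by 1.07 ± 0.08. Ndufaf1, of the membrane-arm assembly complex, read 9.15, 9.20, 9.17 and 9.01 in control total and 8.98, 9.02, 9.05 and 9.09 in control polysomal RNA. With the ligand the arrays read 9.22, 9.15, 9.10 and 9.06 in total and 9.37, 8.97 and 9.10 in polysomal RNA. The groups overlapped and neither difference passed the test (-0.10 ± 0.08 and 0.01 ± 0.09). Ndufaf7, a methyltransferase for a complex I subunit, gave -0.13 ± 0.08 in controls, also not called.

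Probe sets of 1 gene often differed in size but seldom in sign. Of all 75 member probe sets, 50 were higher and 13 lower in control polysomal RNA, against 29.8% and 26.3% of all probe sets. In 14 of the 21 genes with several probe sets, all had the same call. Timm9 alone had called probe sets of opposite sign. The suffix _s_at or _x_at, which marks probes shared with like sequences, was on 20 of the 75. Among them were the brightest ones of Tomm7, Tomm70a, Timm17b, Chchd6, Cox15, Cox17 and Coa3, so near-copies of these genes may add to their values.

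**Figure D3:**
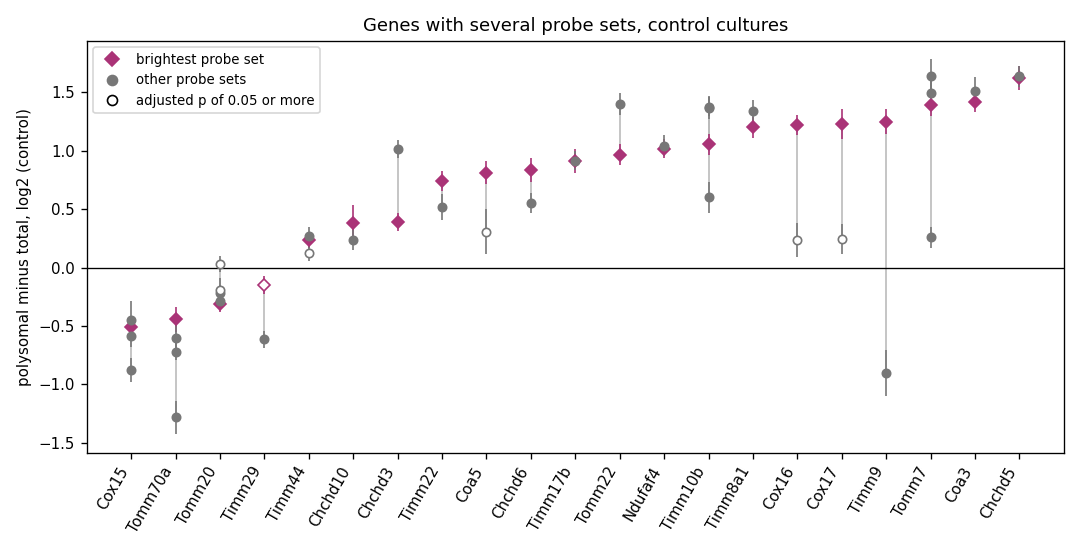
Difference between polysomal and total RNA (log2, control cultures, 4 against 4 arrays) for each probe set of the 21 genes with several; diamonds are the brightest probe set, circles the others, bars the moderated SE and open symbols an adjusted p of 0.05 or more. Cox15 and Tomm70a have all their probe sets below 0, and Timm9 has one at 1.25 and one at -0.90.

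Cultures with CD95L-T4 showed much the same split between fractions. There 29 of the 42 genes were higher in polysomal RNA, 3 were lower (Cox15, Tomm20 and Timm29) and 10 were not called, with 29.6% of all genes higher and 21.8% lower. The median of the members was 0.81, and the fractions did not overlap for 32 of 42, against 48.2% of all genes. In these cultures and in controls alike, 29 genes were higher and 2 (Cox15 and Tomm20) lower, and no gene was called in opposite directions. By their brightest probe sets, Timm23, Tomm70a, Chchd10, Timm44 and Timm50 were called in controls but not with CD95L-T4, and Timm29 the other way round. Ndufaf1, Tomm40, Ndufaf7, Timm8a2 and Tomm34 were called in neither. The interaction given further on was called for none of these genes.

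Other mitochondrial genes were measured as well. In controls, 53 of 78 nuclear-encoded subunits of the respiratory chain and ATP synthase rose and 13 fell, with a median of 0.51. Of 74 proteins of the mitochondrial ribosome, 60 rose and 5 fell, with a median of 0.80. A list of 72 further import and assembly genes had 52 measured, of which 28 rose and 16 fell, with a median of 0.27. The largest rises in it were those of the complex III factor Uqcc3 (1.55 ± 0.12), Lyrm2, linked to complex I assembly (1.46 ± 0.11), and the complex II factor Sdhaf4 (1.39 ± 0.08). Its largest falls were those of Hspa9, the Hsp70 that pulls precursors into the matrix (-1.63 ± 0.07), Hspd1, the matrix chaperonin Hsp60 (-1.63 ± 0.07), and Immt, the MICOS core protein mitofilin (-1.25 ± 0.09).

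Within that list the parts of the route differed. Of 7 genes for the presequence motor and its carriers, 6 rose and Hspa9 fell. Of 8 genes for outer membrane sorting and channels, 2 rose and 5 fell in controls, among the latter Samm50, the core of the sorting machinery (-0.44 ± 0.10), and Vdac1 (-0.45 ± 0.12). With CD95L-T4, 2 of these 8 were called higher and 0 lower, with Samm50 at -0.13 ± 0.11 and Vdac1 at -0.26 ± 0.13. Of 17 factors for complexes II to V, 10 rose and 4 fell. These counts describe lists and were not tested against each other.

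**Figure D4:**
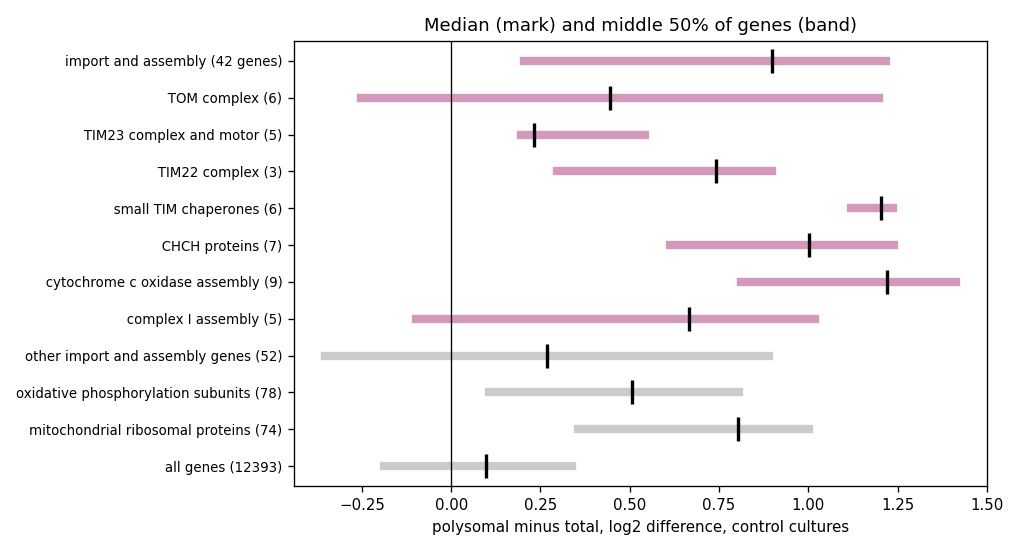
Median (black mark) and middle 50% of genes (band) of the difference between polysomal and total RNA in control cultures (log2, horizontal axis) for the 42 members, their role groups, 3 other mitochondrial lists and all genes, with the number of genes in parentheses. The small TIM and cytochrome c oxidase assembly groups have the highest medians, 1.20 and 1.22, and all genes together 0.10.

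Genes with the same motif differed widely in their polysomal difference. The 14 genes with an ETS core had a median of 0.27 and ran from -0.51 (Cox15) to 1.62 (Chchd5), and the 22 without it had 0.86. The 5 with the NRF1 motif had a median of 1.06 and ran from -0.31 (Tomm20) to 1.58 (Timm8b), and the 31 without it had 0.74. The 3 with the ATG string had a median of 0.23 and ran from 0.20 (Timm50) to 1.41 (Coa3), and the 33 without it had 0.835. No test was made on these groups.

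In total RNA, CD95L-T4 gave no call among the members. Of the 42 genes 0 passed in limma, as did 0% of all genes, and 0 of 42 had an unadjusted p under 0.05, against 3.44% of all genes. The median difference was -0.01 and that of all genes 0.01, and no member had separate groups, against 2.74% of all genes. For all 42 the 95% confidence interval lay within 1.5-fold in either direction. The 4 smallest p-values were those of Timm9 (-0.19 ± 0.11), Cox17 (-0.22 ± 0.13), Chchd3 (-0.14 ± 0.08) and Tomm7 (-0.15 ± 0.10), each with an adjusted p of 0.997. For Timm9 and Cox17, CD95L-T4 total replicates 3 and 4 were low while replicates 1 and 2 lay among or near the controls, so the groups overlapped.

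In polysomal RNA too, no member was called with all arrays: 0 of 42, and 0% of all genes. Yet 33 of 42 members were lower with CD95L-T4, with a median of -0.13 against 0.00 for all genes, of which 49.2% were lower. The median of the members moved to -0.23 without CD95L-T4 polysomal replicate 2 and to -0.08 without replicate 3. Of other mitochondrial genes, 61 of 78 respiratory chain and ATP synthase subunits were lower (median -0.10), as were 50 of 74 mitochondrial ribosomal proteins (median -0.09). Of the 52 further import and assembly genes, 32 were lower (median -0.05). Within these, outer membrane sorting went the other way, with 7 of 8 genes higher (median 0.15). In each of these lists 0 were called. An unadjusted p under 0.05 was reached by 15 of 42, against 9.49% of all genes, and the 95% interval lay within 1.5-fold for 41 of 42. The groups were separate for 3 members, Timm17b and Timm44 lower and Chchd6 higher, against 5.48% of all genes. This held for their brightest probe sets only, and the groups overlapped in the dimmer ones of these genes. That of Timm17b read 9.21, 9.58 and 9.23 with CD95L-T4 and 9.62, 9.56, 9.62 and 9.51 in controls. Smallest in p were Timm8b (-0.34 ± 0.10), Coa3 (-0.31 ± 0.09) and Chchd5 (-0.36 ± 0.11), each with an adjusted p of 0.473, and Cox16 (-0.25 ± 0.09, adjusted p 0.474). In these 4 genes CD95L-T4 polysomal replicates 1 and 3 lay below all control polysomal arrays and replicate 2 lay among or level with them.

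The arrays differed in this. Against the mean of the control polysomal arrays, the median of the 42 members was -0.21 in CD95L-T4 polysomal replicate 1, 0.01 in replicate 2 and -0.22 in replicate 3, and 9, 23 and 7 of the 42 genes were above that mean. The actin gap was 0.59, 0.68 and 1.03 in replicates 1, 2 and 3, against 0.74 to 0.81 in control polysomal RNA. Replicate 2 was the array with the bright poly-A control RNAs. Without it, limma over the other 14 arrays called 13 of 42 lower and 0 higher, where 3.29% of all genes were lower and 3.08% higher, and 26 of 42 had an unadjusted p under 0.05, against 22.4%. These were Chchd5 (-0.54 ± 0.08, adjusted p 0.00920), Timm8b (-0.47 ± 0.09), Coa3 (-0.44 ± 0.08), Cox16, Tomm22, Tomm7, Tomm40l, Timm10b, Timm13, Timm22, Cox19, Coa6 and Ndufaf5. In that fit 12 of the 78 chain subunits were called lower and 2 higher, and 10 of the 74 mitochondrial ribosomal proteins lower and 2 higher. Of the 52 further import and assembly genes 14 were called lower and 4 higher. Among them the 8 genes for outer membrane sorting had 0 lower and 3 higher. A fit of the polysomal arrays alone, again without replicate 2, called 0 of 42 members and 0% of all genes, with 23 of 42 at an unadjusted p under 0.05, against 18.2%. The choice to leave that array out was made after its values were seen, and 2 arrays then stand against 4.

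**Figure D5:**
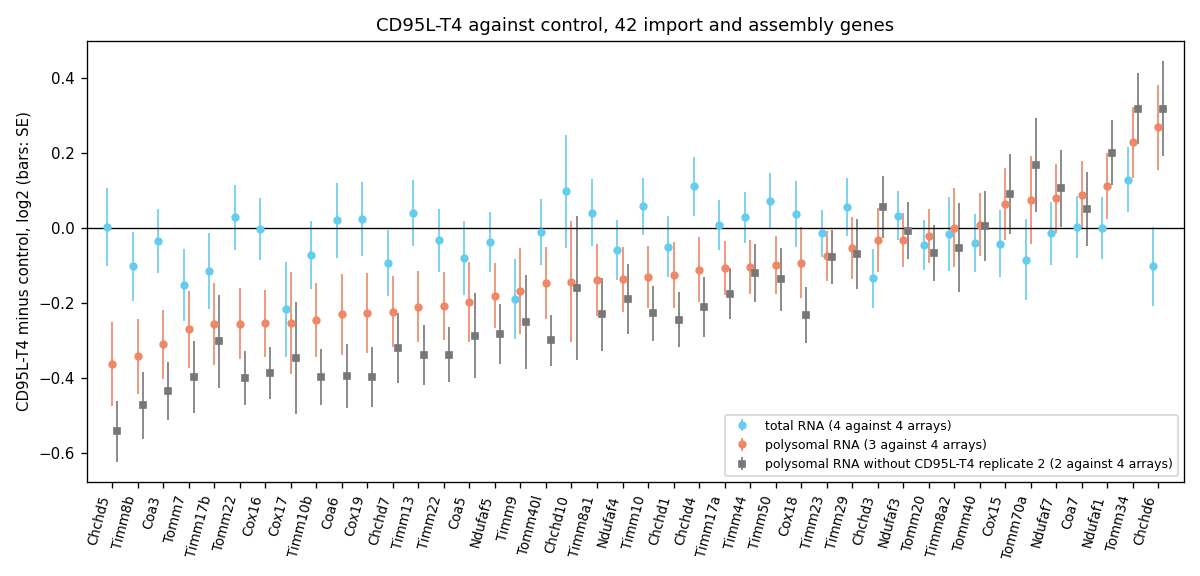
Difference between CD95L-T4 and control cultures (log2, vertical axis) for the 42 genes in total RNA (4 against 4 arrays), in polysomal RNA (3 against 4) and in polysomal RNA without CD95L-T4 replicate 2 (2 against 4); bars are moderated standard errors. Differences in total RNA stay between -0.22 and 0.13, and those in polysomal RNA run from -0.36 in Chchd5 to 0.27 in Chchd6.

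The interaction asks whether the ligand's effect differed between the fractions. It was called for 0 of 42 members and 0% of all genes, with 4 of 42 at an unadjusted p under 0.05, against 3.99% of all genes, and a median of -0.12 against -0.02. That median was -0.20 without CD95L-T4 polysomal replicate 2 and -0.08 without replicate 3. The smallest p-values were those of Chchd5 (-0.37 ± 0.15), Chchd6 (0.37 ± 0.15), Coa3 (-0.28 ± 0.13) and Tomm22 (-0.28 ± 0.13), with an adjusted p of 0.897 each. The second probe set of Chchd6 gave an interaction of 0.08 ± 0.13 and a CD95L-T4 difference in polysomal RNA of 0.07 ± 0.09, with overlapping groups. For 39 of 42 genes the 95% interval lay within 1.5-fold. Leaving out CD95L-T4 polysomal replicate 2 still called 0 of 42, where 0% of all genes were higher and 0.00807% lower, and 17 of 42 had an unadjusted p under 0.05, against 16.1%.

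Once group means were removed, members varied together only in part from array to array: the median Pearson correlation over the 861 pairs was 0.30 (15 arrays, which share scaling and replicate). The members most like Tomm20 were Cox16 (0.67), Chchd1 (0.59) and Coa6 (0.54). Those most like Timm23 were Cox15 (0.73), Timm17b (0.70) and Chchd6 (0.69). For Cox17 they were Timm9 (0.92), Timm17b (0.86) and Timm29 (0.84). The brightest probe sets of Cox17, Timm9 and Timm17b have in common that CD95L-T4 total replicates 3 and 4 were low. For Timm17b these were at 8.78 and 8.85, against 9.29 and 9.22 in replicates 1 and 2. The other probe set of Timm17b read 8.70, 8.56, 8.64 and 8.66 in replicates 1 to 4, without that drop.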

How the data were processed

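The table deposited by the authors holds log2 values per probe set, rounded to 2 decimals, for 15 arrays. Array quantiles were nearly equal, so values are relative within an array; the normalization method is not given in the sources used here. The 64 control probe sets were left out. Each of 22626 probe sets was fitted with 1 mean per group over all arrays in limma 3.58.1 (R 4.3.3), with empirical Bayes moderation, two-sided tests and Benjamini-Hochberg adjustment per contrast at 0.05. Errors after ± are moderated standard errors. Arrays carry no read depth, so their number limits the precision. Groups were read from the sample titles. Probe sets were named through the platform annotation, and all 42 member genes were found by identifier in the GRCm38.p6 gene table.

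The members, the gene lists and the tests were chosen with earlier results of these data known. All members may be named. Values of each array are given for the 6 largest called rises and falls of each fraction contrast, the 4 smallest p-values of each CD95L-T4 contrast and of the interaction, and Tomm20, Tomm40, Timm23, Timm50, Timm9, Timm10, Chchd3, Chchd4, Cox17 and Ndufaf1. Cox10, also chosen, had no probe set of its own. Replicate numbers recur in all groups. Between groups that share a treatment or a fraction, deviations of samples of 1 number correlated with both signs (-0.23 to 0.20), so no pairing was used. Between CD95L-T4 total and control polysomal RNA they correlated positively for every number (0.14 to 0.22). The steps were tested on simulated data. Alternatives covered scaling, dim probe sets, variance model, array weights, replicate block, probe sets and each array left out.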

Additional observations from a re-analysis of the deposited data

Results flagged for a closer look

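In 3 genes with values printed for each array, 1 control total RNA array stood far from the other 3 of its group. Cox17 was at 10.73 in replicate 1, with the others at 10.58 to 10.60. Timm8b was at 10.62 in replicate 3, with the others at 10.82 to 10.86. Tomm20 was at 13.10 in replicate 2, with the others at 13.17 and 13.18. Groups of 4 arrays were examined in 23 genes, 69 groups in all, and chance marks about 1 group in 20 by this measure.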

How the results depend on the processing

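The count of members called stayed within 1.5 times its value under every alternative run, except for CD95L-T4 in polysomal RNA, where leaving out 1 array at a time gave 0 to 13 (13 without CD95L-T4 polysomal replicate 2). Leaving out 1 array gave 33 to 36 calls for the fraction contrast in controls and 31 to 34 with CD95L-T4. When a gene's probe sets were averaged, the median member difference between fractions was 0.72 in controls and 0.67 with CD95L-T4; the average takes in the dimmer probe sets, whose differences were often smaller. No called value of a named gene changed sign in any alternative. Over all 42 members, the calls between fractions that were lost in controls were those of Timm23 (in 7 alternatives), Chchd10 (4), Timm50 (4) and Timm9 (1), and Timm29 gained one (1). With CD95L-T4 they were lost for Timm29 (4) and Timm9 (1) and gained for Tomm70a (10), Tomm34 (2), Timm23, Timm44 and Chchd10 (1 each). The polysomal effect of CD95L-T4 was gained by 13 genes, each without CD95L-T4 polysomal replicate 2 only. Leaving out 1 array moved the median member difference between -0.23 and -0.08 for that effect and between -0.20 and -0.08 for the interaction. With replicate number as a replicate block over all arrays, 36 and 33 members were called between fractions and 0 in the CD95L-T4 contrasts and the interaction. A block within each fraction gave 0 for these as well and cannot estimate the fraction contrasts. Leaving out dim probe sets leaves 41 or 40 members to test. The interaction uses all groups, so it has no fit of compared groups alone.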
